A study of Mus musculus with 12 samples.

Results

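The genes described here encode the heat shock chaperones of the liver: Hspa1a, Hspa1b, Hspa8, Hsph1, Hsp90aa1, Hsp90ab1, Dnajb1, Dnaja1, Hspe1 and Hspd1. They were chosen by name, and each was read from the probesets (groups of probes on the array) whose single gene in the platform annotation is that gene. Of the 10, 9 were named by at least 1 probeset, and Hsp90ab1 was not analysed here. All 9 passed the filter on dim probesets, out of 11899 genes that did so. The set was named for the cytosol, but Hspd1 and Hspe1 encode chaperones of the mitochondrion, and they are described separately below. The samples were livers of 12 male C57BL/6 mice with free access to food and water and equal hours of light and dark, 1 Affymetrix array per mouse. The 6 control mice received no antibiotic, and the 6 penicillin mice drank water with penicillin at a low dose from weaning. Livers of both groups were taken after 7 weeks of intervention. The sources used here give no dose, exact age, cage or hour of collection.

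Heat shock chaperones bind unfolded proteins and help them to fold, and most are induced when the transcription factor HSF1 is released by heat or other protein-damaging stress. HSF1 binds heat shock elements, which are repeats of the letters GAA in alternating direction. Hsp70 proteins such as Hspa1b work with Hsp40 partners such as Dnajb1, which stimulate their ATPase, and with exchange factors such as Hsph1, while Hsp90 completes the folding of kinases and steroid receptors. In the liver these genes also follow body temperature over the day.

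The promoters of 7 of the 10 genes were matched in the RefSeq promoter table of build GRCm38.p6, which holds 250 bases before and 50 bases after each annotated start. The letters of 2 adjoining heat shock units, GAANNTTC or TTCNNGAA, both strands read (each is its own reverse complement, and neighbouring matches may overlap), were in at least 1 window of 6 of the 7 genes. Over the 27025 genes of the table, 17% had such a match. The letters of 3 adjoining units, which are both of these pairs overlapping in a shared GAA or TTC, on either strand, were in 3 of the 7 genes (Hspd1, Hspe1 and Hsph1) and in 0.662% of all genes. Hspd1 and Hspe1 share the same run, and the windows of Hspa1a and Hspa1b are nearly alike, so these counts are not of separate promoters. A match is a description of the letters and shows no binding. Only exact letters within these windows were searched, so a missing match does not show that a gene lacks heat shock elements. The 2 whole upstream sequences below are shown because they belong to a gene that varied widely between mice and to the least variable pair. The shorter stretches hold the upstream match of Hsph1, whose run of 3 units lies after its start, and that of Dnaja1. Matches are in capitals, and each sequence runs 5′ to 3′ on the strand of its gene.
Hspa1b, chr17:34959239-34959488, minus strand: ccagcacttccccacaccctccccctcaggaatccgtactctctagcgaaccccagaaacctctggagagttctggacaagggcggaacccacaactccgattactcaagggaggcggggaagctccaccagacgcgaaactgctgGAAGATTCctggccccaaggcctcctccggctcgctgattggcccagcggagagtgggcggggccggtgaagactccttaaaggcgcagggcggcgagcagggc
Hspe1, chr1:55087898-55088147, plus strand: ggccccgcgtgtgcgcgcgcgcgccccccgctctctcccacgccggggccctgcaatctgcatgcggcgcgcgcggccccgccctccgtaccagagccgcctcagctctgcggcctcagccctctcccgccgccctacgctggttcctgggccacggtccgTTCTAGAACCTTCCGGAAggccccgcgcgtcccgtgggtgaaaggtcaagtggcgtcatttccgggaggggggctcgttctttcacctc
Hsph1, chr5:149636346-149636385, minus strand: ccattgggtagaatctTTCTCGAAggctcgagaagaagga
Dnaja1, chr4:40722328-40722367, plus strand: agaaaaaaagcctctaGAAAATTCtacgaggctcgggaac

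Hspa1a and Hspa1b lie on chromosome 17 with starts 12918 bases apart, and their upstream windows differed at 3 of 250 bases, none of them within the match printed for Hspa1b. Hspd1 and Hspe1 lie head to head on chromosome 1, and a start of Hspd1 lies 216 bases from that of Hspe1, so that the run of heat shock units printed for Hspe1 lies in the window of both. No match was found in either window of Dnajb1.

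Before any comparison of groups, 3 arrays have to be named. Controls 1, 3 and 5 stood apart by immediate early genes, whose transcripts appear soon after a stimulus: the mean of 21 such genes, as a log2 deviation from the mean of 12 arrays, was 1.79, 1.83 and 1.21 in these arrays, between -0.66 and -0.16 in the other controls and between -0.77 and -0.40 with penicillin. The group differences of genes and the medians of chaperone lists below are therefore given with and without these 3 arrays, and those of single probesets with all 12 arrays. The tissue was checked by albumin (Alb), which stood at 14.93 to 15.02 in log2 intensity on all arrays. Labels give separate mice but no cages. P-values weigh a difference against the spread between mice within the groups and take the mice as independent, which mice of a shared cage may not be.

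The inducible Hsp70 genes had wide ranges. Hspa1b stood at 9.91, 12.34 and 13.29 (lowest, median, highest) in log2 intensity in the 6 controls and at 9.44, 10.64 and 11.64 in the 6 penicillin livers. Controls 3, 1 and 5 were the highest of all arrays, at 13.29, 13.16 and 12.91, while control 2, at 9.91, lay below 5 of the 6 penicillin livers. The span over 12 arrays was 14.4-fold. Hspa1a, the neighbouring gene with a nearly identical product, stood at 5.22, 8.11 and 9.78 in controls and at 5.57, 6.21 and 7.15 with penicillin. Its controls divided, with 9.36, 9.78 and 9.61 in controls 1, 3 and 5 and 5.22, 6.51 and 6.85 in controls 2, 4 and 6. Hspa1a was read from 1 probeset, whose lowest levels (5.22 and 5.57) were not far above the filter of 4.73. Such levels may not be told from background, so its span and fold difference are less sure. Probes for either gene may bind transcripts of the other, which their likeness allows, so they are not independent readings.

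Hspa8 and Hsph1, read on their brightest probesets, varied less than the inducible Hsp70 genes. Hspa8, the constitutive Hsp70 that is abundant in every cell, stood at 12.74, 13.14 and 13.40 in controls and at 12.58, 12.77 and 13.10 with penicillin. The groups overlapped, and the span over 12 arrays was 1.78-fold on this probeset. Its dimmest probeset ran more widely, from 6.42 in penicillin 5 to 9.26 in control 5. Hsph1, an Hsp110 protein that exchanges the nucleotide of Hsp70, stood at 8.57, 10.37 and 11.12 in controls and at 8.37, 8.85 and 10.03 with penicillin. As for Hspa1b, controls 1, 3 and 5 were the highest, and penicillin 1 and 3, both at 10.03, stood above the other penicillin livers.

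Of the Hsp40 partners, Dnajb1, which delivers unfolded proteins to Hsp70, had the second widest span of the set, 20.2-fold over 12 arrays. It stood at 8.51, 9.93 and 12.68 in controls and at 8.34, 8.87 and 9.54 with penicillin. Controls 1 and 3 reached 12.68 and 12.62, control 5 lay between at 10.80, and controls 2, 4 and 6 (8.51, 9.06 and 8.94) lay within the range of the penicillin livers. Dnaja1, an Hsp40 of the cytosol with a farnesyl anchor, stood at 11.70, 12.43 and 13.25 in controls and at 11.86, 11.96 and 12.44 with penicillin. The same 3 arrays led, with 13.19 and 13.25 in controls 1 and 3 and 12.61 in control 5. Hsp90aa1, the inducible cytosolic Hsp90, stood at 11.43, 12.20 and 12.51 in controls and at 11.19, 11.56 and 12.10 with penicillin, a span of 2.49-fold over 12 arrays. Here control 5 was the highest array and control 4, at 12.08, stood close to penicillin 3, at 12.10.

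The mitochondrial pair varied little between mice. Hspd1, the folding chamber Hsp60, stood at 12.63, 12.69 and 12.93 in controls and at 12.63, 12.68 and 12.94 with penicillin. Hspe1, its lid Hsp10, stood at 12.19, 12.40 and 12.54 in controls and at 12.27, 12.31 and 12.43 with penicillin. Spans over 12 arrays were 1.24-fold and 1.28-fold, and 86.5% and 79.3% of the genes tested had a wider span. By contrast, 0.118% of genes had a wider span than Hspa1a, 0.151% than Dnajb1, 0.252% than Hspa1b and 0.672% than Hsph1. Even in this pair controls 1 and 3 were the highest controls. The shared run of heat shock units printed above was in the promoter of the least variable members. Matches were also in the windows of Hsph1, with a run of its own, and of Hspa1a and Hspa1b, which all had wide spans. No exact match was in the windows of Dnajb1, a gene that varied widely, but other forms of the element were not searched. The part of these letters in the spread was not tested.

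**Figure D1:**
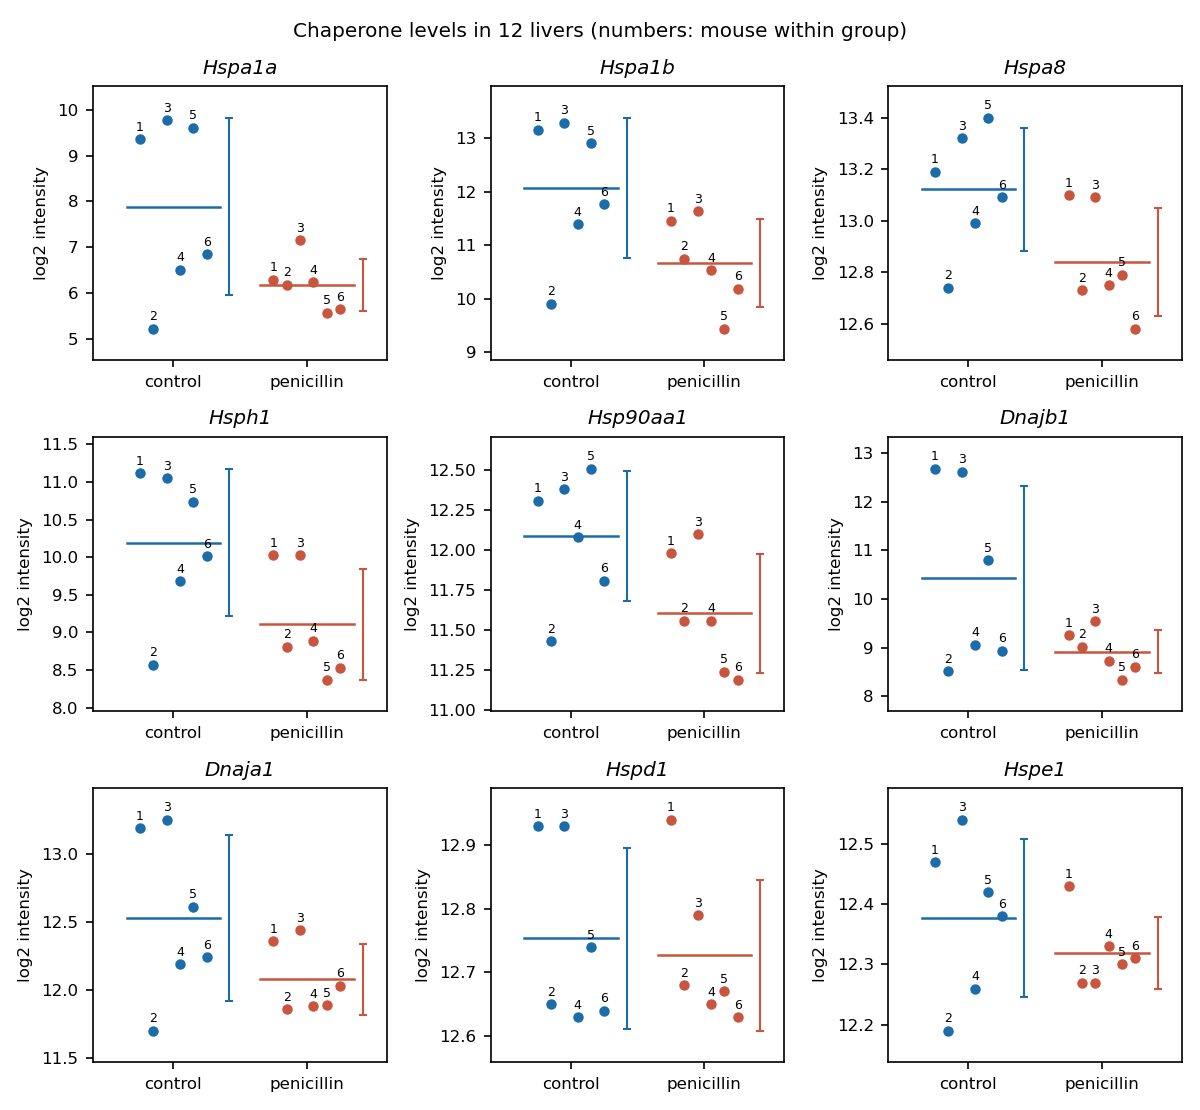
Log2 intensity of each chaperone gene in 6 control (blue) and 6 penicillin (red) livers, 1 point per mouse with its number; lines are group means and bars the SD, and each panel has its own axis. Controls 1, 3 and 5 are the highest controls for every gene, and control 2 is the lowest control for all but Hspd1.

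The comparison of penicillin with control asked whether low-dose penicillin went with a different level of these genes in the liver. All 9 were lower with penicillin, by a median of 0.48 on the log2 scale, against a median difference of 0.006 over all genes. The difference was -1.71 for Hspa1a (SE 0.72), -1.52 for Dnajb1 (SE 0.69), -1.41 for Hspa1b (SE 0.55) and -1.08 for Hsph1 (SE 0.44), which are 3.28-fold, 2.86-fold, 2.65-fold and 2.12-fold lower levels. For Hsp90aa1 it was -0.48 (SE 0.20), for Dnaja1 -0.45 (SE 0.24) and for Hspa8 -0.28 (SE 0.12). For Hspe1 it was -0.06 (SE 0.065) and for Hspd1 -0.03 (SE 0.077). No gene passed limma's test with Benjamini-Hochberg adjustment over all genes at a threshold of 0.05: 0 of the 9 were called, as were 0 of all 11899 genes (0%). The adjusted p was 0.584 for Hspa1b, 0.588 for Hsph1, 0.594 for Hspa1a and 0.621 for Dnajb1, and reached 0.955 for Hspd1.

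At an unadjusted p under 0.05, limma had 6 of the 9 as lower (Hspa1a, Hspa1b, Hspa8, Hsph1, Hsp90aa1 and Dnajb1), against 3.66% of all genes in that direction and 7.98% in either. This count changed with single arrays, in both directions. It was 0 without control 1, control 3, control 5 or penicillin 5, and 1 without penicillin 2, 4 or 6. Without control 2 it was 7, without control 4, control 6 or penicillin 3 it was 6, and without penicillin 1 it was 5. It was 1 without limma's variance prior, 0 by an exact permutation test of the difference of means, and 7 with arrays weighted. In 0 of the 9 genes did the groups not overlap, against 0.412% of all genes.

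For each of the 9 genes, controls 1, 3 and 5 were the 3 highest controls, so leaving them out had to raise the difference. The values below therefore cannot decide whether the groups differ. Without controls 1, 3 and 5 the differences were small beside their errors. Hspa1b was then at -0.36 (95% interval -1.50 to 0.79), Hsph1 at -0.31 (-1.29 to 0.67), Hsp90aa1 at -0.17 (-0.66 to 0.32), Hspa8 at -0.10 (-0.39 to 0.19) and Hspa1a at -0.02 (-0.90 to 0.86). Dnajb1 was at 0.08 (-0.46 to 0.62), Dnaja1 at 0.03, Hspe1 at 0.04 and Hspd1 at 0.09. The median over the 9 genes was -0.02, and 0 of them had an unadjusted p under 0.05, against 4.10% of all genes. The intervals, from 3 controls and 6 penicillin livers, still include a lower Hspa1b by more than 1 on the log2 scale.

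**Figure D2:**
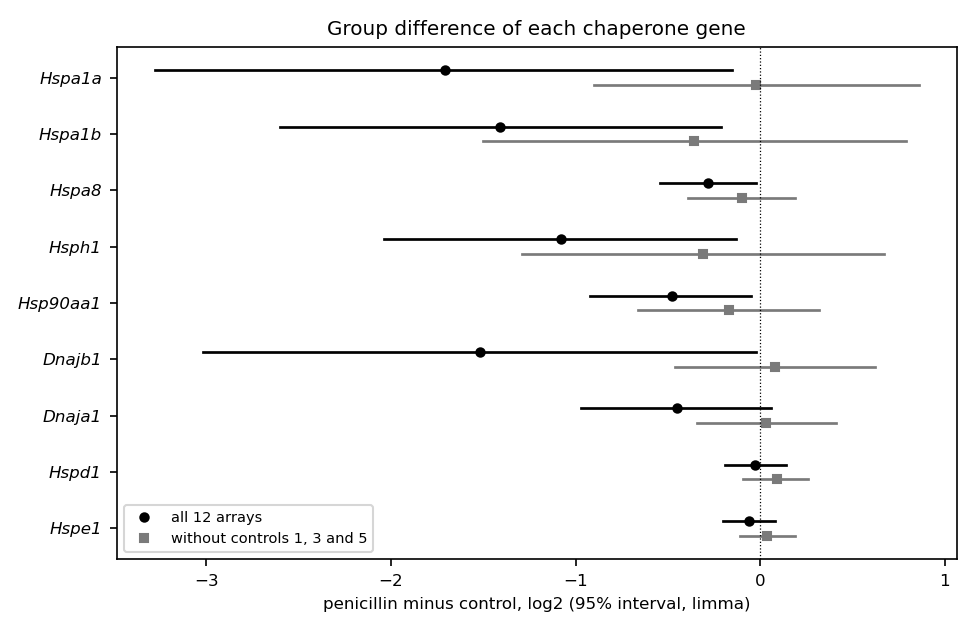
Penicillin minus control in log2 intensity with limma's 95% interval, for all 12 arrays (black circles) and without controls 1, 3 and 5 (grey squares); the dotted line marks no difference. The black points of 7 genes lie at -0.28 or lower, and every grey interval includes 0.

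The spread between mice was compared between the groups as well. In all 9 the SD was larger in controls than with penicillin, and 55.3% of all genes had this order. Dnajb1 had an SD of 1.88 in controls and 0.442 with penicillin (n = 6 each), a ratio of 4.27, and Hspa1a an SD of 1.94 and 0.566, a ratio of 3.43. For Dnaja1 the SDs were 0.608 and 0.258, and for Hspa1b 1.31 and 0.816. The remaining cytosolic genes varied to a like degree in both groups: Hsph1 had SDs of 0.980 and 0.737, Hsp90aa1 of 0.404 and 0.374, and Hspa8 of 0.240 and 0.211. The median gene had an SD of 0.151 in controls and 0.142 with penicillin.

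The difference of spread was tested with limma on each array's absolute deviation from its group mean, over all genes. Of all genes 6 were called (0.0504%), and of the 9 chaperone genes 0. Most of the 6 were immediate early genes, by which controls 1, 3 and 5 had been set apart. Mean deviations were larger in controls by 1.44 for Hspa1a (adjusted p = 0.123 with limma) and by 1.36 for Dnajb1 (adjusted p = 0.143). At an unadjusted p under 0.05, 3 of the 9 were wider in controls (Hspa1a, Dnajb1 and Dnaja1), against 5.66% of all genes. Without control 5, which lay between the others, Dnajb1 was called (difference of -1.65, adjusted p = 0.00515 with limma), and 36 of all genes were. Leaving out the array nearest the group mean leaves larger and more even deviations, so this call is no separate result. Without controls 1, 3 and 5 the deviations of Dnajb1 were larger with penicillin by 0.12, those of Hspa1a were larger in controls by 0.38, and 0 genes of the array were called.

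**Figure D3:**
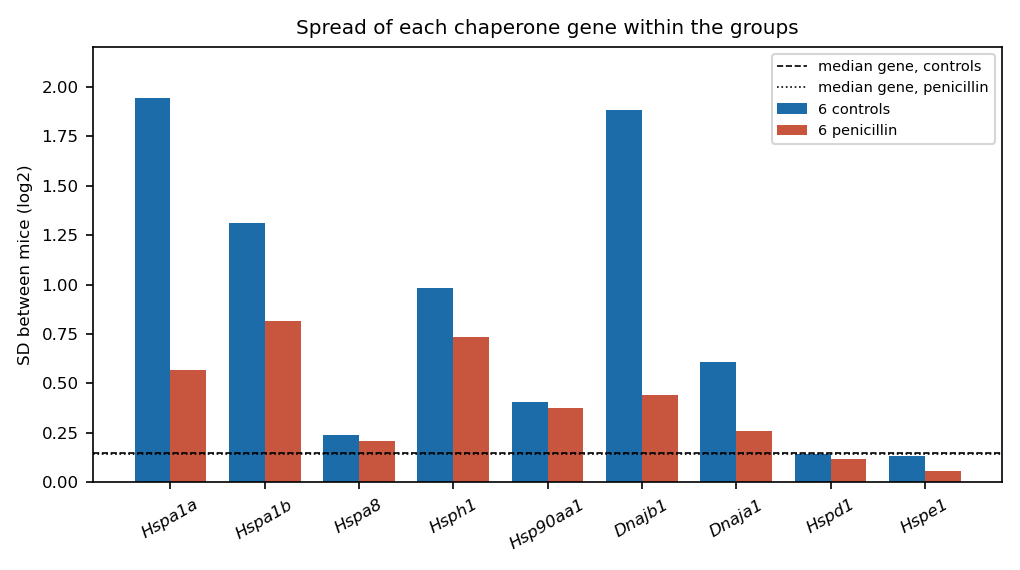
SD between mice of log2 intensity for each chaperone gene in 6 controls (blue) and 6 penicillin livers (red); the dashed and dotted lines are the SD of the median gene in each group, 0.151 and 0.142. Hspa1a and Dnajb1 have the tallest control bars, 1.94 and 1.88, and Hsph1, Hsp90aa1 and Hspa8 have bars of like height in both groups.

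Different probesets of 1 gene gave the same picture. The 9 genes had 23 probesets, of which 21 passed the filter; all 21 were lower with penicillin, 16 of them with an unadjusted p under 0.05 in limma (3.35% of all probesets tested), and 0 were called. For Hspa1b the 3 probesets gave differences of -1.41, -1.61 and -1.70, for Dnajb1 the 2 gave -1.52 and -1.37, and for Hsph1 the 2 gave -1.08 and -1.13. Dimmer probesets of some genes gave larger differences. Hspa8 was at -0.28 on its brightest probeset but at -0.44, -0.56 and -0.96 on dimmer ones, and Hsp90aa1 at -0.48 on its brightest and at -0.74 and -0.78 on the next. For Hspe1 both probesets gave -0.06. Probesets of a gene share the same RNA and are not replicates.

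The cytosolic genes shared their highest arrays, controls 1, 3 and 5, while the order of the other arrays differed in part by gene. The average below is not scaled, so genes of wide span weigh most in it. Averaged over the 9 genes, the deviation from the mean of 12 arrays was 1.25, 1.16 and 0.87 in controls 3, 1 and 5, then 0.12 in penicillin 3, -0.01 in penicillin 1, -0.02 in control 6 and -0.13 in control 4. It was -0.45 to -0.82 in penicillin 2, 4, 5 and 6 and in control 2. The immediate early genes marked controls 1, 3 and 5 as well, but not the further order: penicillin 3, with the highest chaperones of its group, had the lowest immediate early mean of all arrays, -0.77. All 21 immediate early genes were lower with penicillin, 17 with an unadjusted p under 0.05 in limma and 0 called, and without controls 1, 3 and 5 their median difference was -0.19. With their mean as a covariate the chaperones had a median difference of 0.05. That mean was above 0 in controls 1, 3 and 5 only, which were the highest controls for each of the 9 chaperone genes. As a covariate it therefore acts much like leaving these arrays out and cannot decide whether the groups differ. The part of the immediate early genes in the group difference was not tested.

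Markers of other cells were read beside this. Of 13 neutrophil markers 11 were named, 4 were tested and 7 lay under the filter; all 4 were lower with penicillin, and their mean deviation ran from -0.11 to 1.27 in controls and from -0.86 to -0.25 with penicillin. Their median difference was -0.94 (-0.91 without controls 1, 3 and 5), and 3 of the 4 had an unadjusted p under 0.05 in limma. The highest arrays for these markers were control 6 (1.27), then controls 1, 3 and 5 (0.73, 0.64 and 0.20), the 3 highest arrays for chaperones. Markers of hepatocytes (9 tested, 7 lower, mean deviation -0.14 to 0.16 in controls and -0.16 to 0.17 with penicillin) stood at 0, -0.08 and 0.06 in controls 1, 3 and 5. The medians of the lists of the 7 other cell types lay between -0.25 and 0.10. Of 17 clock genes 10 were higher with penicillin (median 0.19), and of 23 acute phase genes 22 were lower (median -0.19), with 0 called in each. In bulk liver, fewer cells of a type and less RNA per cell cannot be told apart, and the part of cell types in the chaperone levels was not tested. The 3-prime minus 5-prime signal of Gapdh, a sign of RNA quality, lay between -0.17 and 0.01 in controls and between -0.15 and -0.02 with penicillin.

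**Figure D4:**
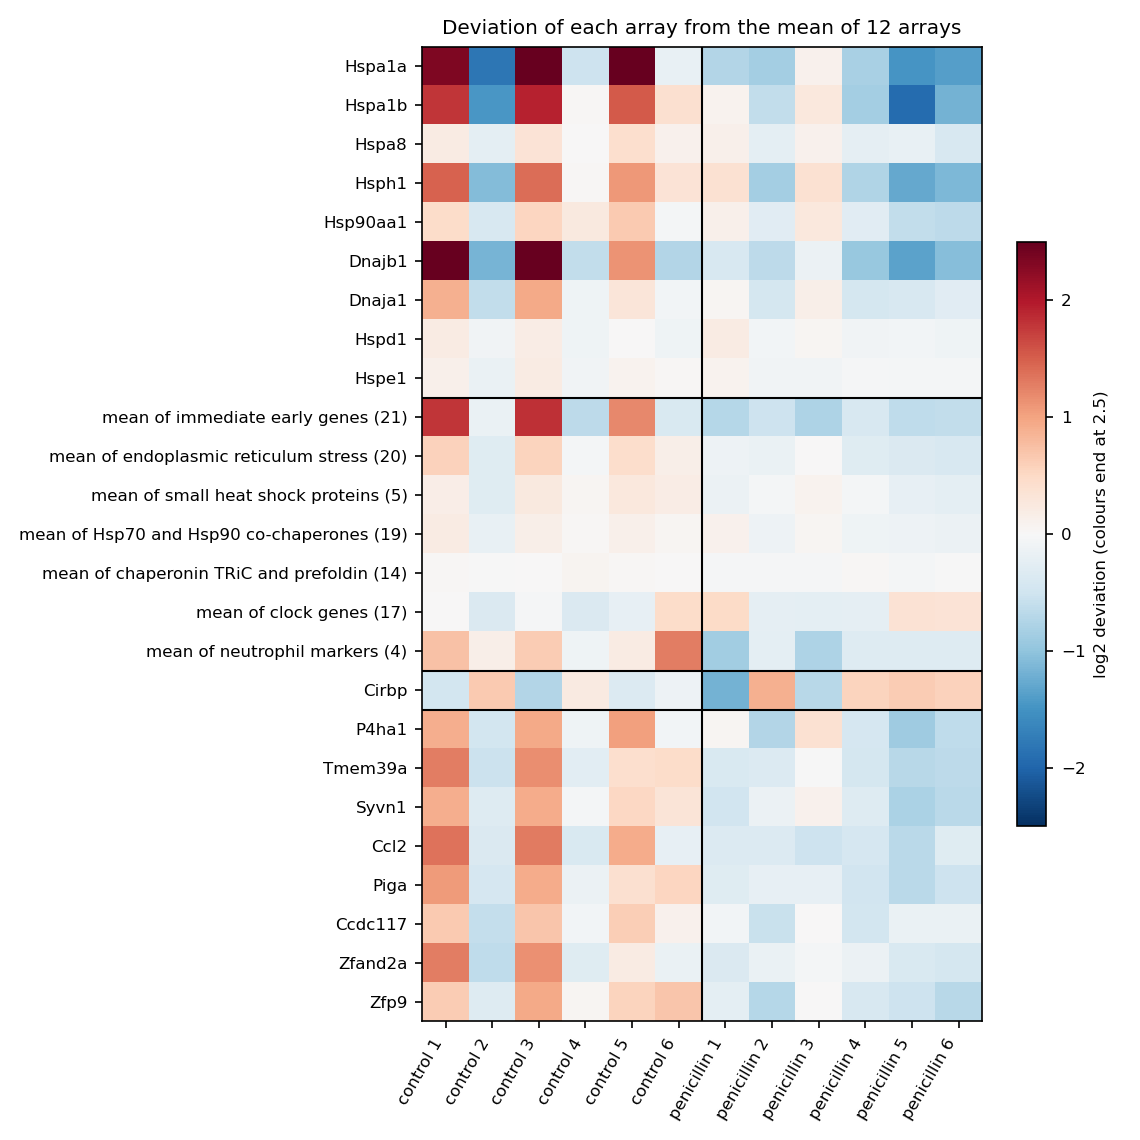
Log2 deviation of each array (columns) from the mean of 12 arrays for the chaperone genes, for the means of companion gene lists (number of genes in brackets), for Cirbp and for the 8 genes nearest in pattern; red is higher, blue lower, and colours end at 2.5. Controls 1, 3 and 5 are red for most cytosolic chaperones and for the immediate early genes, pale for Hspa8, Hspd1 and Hspe1 and blue for Cirbp.

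Cirbp, a cold-induced RNA-binding protein whose level is known to fall as body temperature rises, tended to be lower in arrays with higher chaperones. It stood at 6.64, 7.13 and 8.02 (lowest, median, highest) in controls and at 6.19, 7.94 and 8.26 with penicillin, and its group difference of 0.26 (SE 0.35, adjusted p = 0.904 with limma) did not pass and was -0.12 without controls 1, 3 and 5. The 7 arrays with the lowest Cirbp were penicillin 1 and 3 and controls 1, 3, 4, 5 and 6. The same 7 arrays were the highest for Hspa1a, Hspa1b, Hspa8, Hsph1, Hsp90aa1 and Dnaja1, while 6 of them were among the highest 7 for Dnajb1 and 5 for Hspd1 and Hspe1. Within the penicillin group, where no array had high immediate early genes, penicillin 1 and 3 had Cirbp at 6.19 and 6.68 and the others at 7.93 to 8.26. Penicillin 1 and 3 were also the highest of that group for 8 of the 9 chaperone genes, all but Hspe1. Control 2, the lowest control for 8 of the 9 genes, had the highest Cirbp of its group, 8.02. The orders parted at the ends: penicillin 1, with the lowest Cirbp, ranked 5 for the chaperone mean, and penicillin 2, with the highest, ranked 8. The number 7 was chosen after these values were seen, no test was made, and Rbm3, a related cold-induced gene, was not analysed here.

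**Figure D5:**
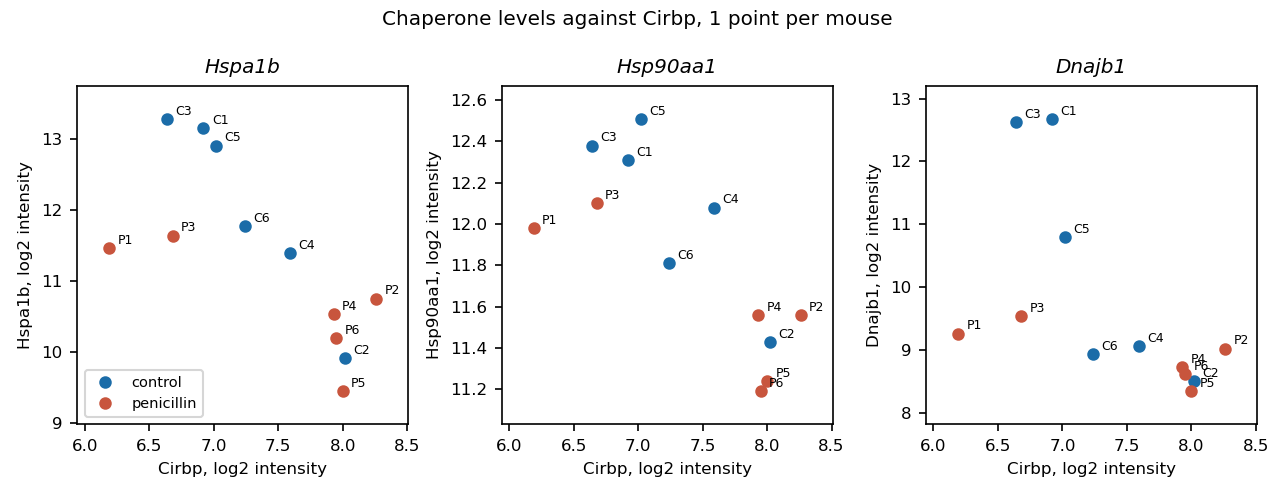
Log2 intensity of Hspa1b, Hsp90aa1 and Dnajb1 (vertical axes) against that of Cirbp (horizontal axes) in 6 controls (blue, C) and 6 penicillin livers (red, P), with mouse numbers. For Hspa1b and Hsp90aa1 the 5 arrays with Cirbp at 7.93 or higher are the 5 lowest, and for all 3 genes P1 and P3, with Cirbp at 6.19 and 6.68, are the highest penicillin livers.

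Other chaperone genes are given by list, with medians that were not tested against each other. Of 14 further Hsp40 genes 10 were lower and 4 higher with penicillin, with a median difference of -0.04 (-0.01 without controls 1, 3 and 5). The 2 with an unadjusted p under 0.05 in limma were Dnaja4 (-0.54, SE 0.14, adjusted p = 0.374) and Dnajb4 (-0.56, SE 0.24). Without these 3 arrays Dnaja4 was at -0.33 and Dnajb4 at 0.01. Of 19 co-chaperones of Hsp70 and Hsp90, 12 were lower and 7 higher (median -0.05, 0 without these arrays). Bag3, the exchange factor that directs Hsp70 to autophagy, ran from 8.77 to 10.91 in controls and from 8.72 to 9.82 with penicillin, a difference of -0.78 (SE 0.34), and Chordc1, a partner of Hsp90, differed by -0.49 (SE 0.20). These 2 had an unadjusted p under 0.05. Bag3 was highest in controls 1, 3 and 5, at 10.91, 10.85 and 10.05, and without them its difference was -0.10 and that of Chordc1 -0.21.

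Of 5 small heat shock proteins tested, which hold unfolded proteins without ATP, 3 were lower and 2 higher (median -0.21, 0.06 without controls 1, 3 and 5). Hspb1 stood at 11.59, 11.60 and 11.36 in controls 1, 3 and 5 and at 9.57 to 10.75 in the other 9 arrays, and differed by -0.70 (SE 0.32, adjusted p = 0.626 with limma), or by -0.04 without these 3 arrays. Hspb6 was higher by 0.20 (SE 0.14), or by 0.06 without them. Of 9 further Hsp70 and Hsp110 genes 7 were lower (median -0.22, -0.10 without these arrays), with Hspa13 at -0.52 (SE 0.18) and Hspa5, the Hsp70 of the endoplasmic reticulum, at -0.45 (SE 0.15). Without these arrays Hspa13 was at -0.42 and Hspa5 at -0.22. All 20 genes of endoplasmic reticulum stress were lower (median -0.32, -0.12 without controls 1, 3 and 5), 12 with an unadjusted p under 0.05 in limma against 3.66% of all genes, and 0 of 20 without these arrays. Among the 12 were Dnajb9 at -0.80 (SE 0.24) and Manf at -0.66 (SE 0.21), both at -0.40 without these arrays.

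The housekeeping folding machines of the cytosol varied little on average. The 14 genes of the chaperonin TRiC and of prefoldin, which fold actin and tubulin, had a mean deviation of -0.01 to 0.06 in controls and of -0.05 to 0.03 with penicillin. Pfdn4, singled out after its values were seen, spanned 0.71 on the log2 scale over 12 arrays, above the 0.52 of the median gene. The median difference of the list was -0.04 (-0.03 without controls 1, 3 and 5), and the smallest p belonged to Cct5 (-0.11, SE 0.051) and Cct4 (-0.07, SE 0.052), both at -0.07 without these arrays. The 12 other mitochondrial chaperones and proteases, 9 of them higher, had a median difference of 0.04, also without these arrays. Clpx, singled out after its values were seen, spanned 5.07-fold over 12 arrays, from 9.41 to 11.69 in controls and from 9.39 to 11.74 with penicillin. Hscb, an Hsp40 partner in the making of iron-sulphur proteins, was higher by 0.20 (SE 0.076), the 1 gene of this list with an unadjusted p under 0.05 in limma, and Grpel1, the exchange factor of mitochondrial Hsp70, by 0.09 (SE 0.046), or by 0.14 and 0.08 without these arrays. Of the heat shock factors and their binding proteins 3 were tested, with Hsf2 at -0.18 (SE 0.18) and Hsbp1 at 0.04 (SE 0.042), or at -0.34 and 0.04 without these arrays. Their median was -0.08, or -0.21 without these arrays. No gene of these lists was called.

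The genes outside these lists that were nearest to the mean pattern of the 9 chaperones were ranked by the mean absolute difference of log2 deviations over 12 arrays. P4ha1, a prolyl hydroxylase of collagen, was nearest, at 0.155. It stood at 6.66, 7.54 and 8.13 in controls and at 6.24, 6.58 and 7.50 with penicillin. Next were Tmem39a (0.195), Syvn1, a ubiquitin ligase of the endoplasmic reticulum (0.236), the chemokine Ccl2 (0.236), Piga (0.252), Ccdc117 (0.264), Zfand2a, a zinc finger protein induced by arsenite (0.265), and Zfp9 (0.290). By the same measure Dnaja1 lay at 0.195 from the mean of which it is part, and Hspa1a at 0.73. Ccl2 stood at 6.77, 6.72 and 6.33 in controls 1, 3 and 5 and at 4.73 to 5.21 in the other 9 arrays. Its spread passed as wider in controls (difference of -0.71, adjusted p = 0.00139 with limma), but not without these 3 arrays (0.03, adjusted p = 0.873). Ccl2 was picked for a pattern that is high in these 3 arrays, so its wider spread is no separate result. Its other 9 arrays lay near the filter of 4.73, where levels cannot be told from background.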

How the data were processed

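RNA of 12 livers was purified on columns and labelled from the 3-prime end, per the labels' protocols. Per the submitters' processing notes, the authors used RMA to turn scans into the deposited intensities, with 1 value per probeset. RMA makes array distributions alike, so a change shared by most genes is removed. The sources used here name no version of it. The intensities were linear, and log2 was taken here with no further normalization. Of 45101 probesets, 34945 had a single gene in the platform annotation, and 932 with several genes were named for none. Gene symbols were brought up to date by identifier from the RefSeq table of GRCm38.p6 (18032 identifiers matched, 162 did not). Probesets with a mean under the median of all non-control probesets (4.73) were left out, and each gene was its brightest probeset. Groups of 6 were compared with limma 3.58.1 in R 4.3.3 (two-sided, Benjamini-Hochberg over all genes), without covariates. Spread was tested with limma on absolute deviations from the group mean. Both tests were tested on simulated data. There the test of differences recovered most changed genes and the test of spread few, so that the latter can miss wider spread. The recovery of differences need not hold for the most variable chaperones. Hspa1a and Dnajb1 had control SDs of 1.94 and 1.88 in log2 intensity, against 0.151 for the median gene. Their differences of -1.71 and -1.52 had SEs of 0.72 and 0.69, so the test may miss changes of such size in them.

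The members, gene lists and tests were chosen with earlier results of these data known, among them that controls 1, 3 and 5 stood apart. The rule for genes to name took all members, the 2 genes of smallest p in each other list and the 8 genes nearest in pattern. Lists of immediate early, clock and acute phase genes and of cell types are given by counts, medians and mean deviations, without those genes. Alb, Fkbp5, Cryab, Pfdn4 and Clpx were added after their values were seen. Alternatives were other filters, probeset summaries and normalizations, covariates, weights, priors, an exact permutation test and the omission of arrays. Replicate numbers were not taken as pairs.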

Additional observations from a re-analysis of the deposited data

Results flagged for a closer look

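In 1 of 18 sets of 6 arrays (9 genes in each group), the extreme array lay apart by Dixon's criterion, which chance exceeds in about 1 in 20 sets. It was Hspe1 in penicillin 1, at 12.43 in log2 intensity against 12.33 for the next array, a gap of less than the SD of the controls (0.132). Penicillin 1 was also the highest array of its group for Hspd1, at 12.94 against 12.79 for the next.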

How the results depend on the processing

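The count of genes called for a difference was 0 of all genes and 0 of the 9 chaperone genes under each of 24 alternatives, and the adjusted p of the 9 genes ran from 0.21 (Hspa1b without control 2) to 1. Under the exact permutation test 49 genes reached the smallest p that 924 assignments can give, 0.00216, and none of them passed after adjustment. The median difference of the 9 genes ran from -0.62 to -0.42 when 1 array was left out and was 0.05 with the immediate early mean as a covariate. With that covariate Hspa1a turned to 0.11, Dnajb1 to 0.36, Dnaja1 to 0.09, Hspe1 to 0.05 and Hspd1 to 0.10. The covariate is high in controls 1, 3 and 5 only, so it is not a separate check beside leaving them out. Without controls 1, 3 and 5 Dnajb1 was at 0.08, Dnaja1 at 0.03, Hspe1 at 0.04 and Hspd1 at 0.09, and with 1 array left out Hspd1 ran from -0.07 to 0.01. The cause was not tested. Over all genes, 488 had an unadjusted p under 0.05 without these 3 arrays and 503 with the covariate, against 950.

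The spread test called 6 genes, and 1 to 37 when 1 array was left out (1 without control 1 or control 3, 25 without control 2, 22 without control 4, 36 without control 5, 37 without control 6 and 10 without penicillin 5). It called 3 with the stricter filter, under which Hspa1a was not tested, 3 with deviations from the median, 2 with squared deviations and 0 without controls 1, 3 and 5. Differences of spread turned, without those 3 arrays, to 0.02 for Hspa8, 0.04 for Hsp90aa1, 0.12 for Dnajb1 and 0.09 for Hspd1. With 1 array left out they ran from -0.07 to 0.04 for Hspa8, from -0.35 to 0.07 for Hsph1 and from -0.10 to 0.08 for Hsp90aa1. The cause was not tested.

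With the replicate number as a block, 0 genes were called, 7 of the 9 chaperones and 1214 genes had an unadjusted p under 0.05, and the adjusted p of Hsph1 was 0.354. Same-numbered arrays deviated together by r of -0.255 to 0.385 over genes, and 3 of 6 controls matched their own number best. These values do not settle whether the numbers are pairs. The labels name no pairs, so the numbers were not taken as pairs. Precision is limited by 6 arrays a group, and levels of dim probesets cannot be told from background.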

Other observations

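Some partners of the chaperones had an order of arrays of their own. Fkbp5, a co-chaperone of Hsp90 known as a target of glucocorticoids, was highest in control 6 and penicillin 1, at 9.49 and 9.14 in log2 intensity, and lay between 7.25 and 8.40 in the other 10 arrays. Cryab, a small heat shock protein, was highest in control 6 at 8.14 and ran from 6.14 to 7.16 elsewhere. Control 6 was also the highest array for the mean of 23 acute phase genes (1.41 above the mean of 12 arrays, against -0.36 to 0.17 in the others) and had an Hspa1b level of 11.77, below controls 1, 3 and 5. These genes were picked after they were seen and were not tested.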
